A study of Mus musculus with 17 samples.

Results

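The thoracic spinal cord of 6 mice with targeted experimental autoimmune encephalomyelitis (EAE) that received the humanized anti-RGMa antibody was compared with the cord of 6 naïve mice, over 18194 genes. The question was which changes of the diseased cord remained under treatment and which processes lay at the naïve level. All 17 arrays of the series came from female C57BL/6 mice, labelled as 8 weeks old, with 1 array per mouse. Each sample was a 4.5 mm piece of cord around the injection site. The EAE protocol ran over several weeks, so the labelled age may not be the age at sampling. An age match between the groups cannot be taken from it. Targeted EAE was made by immunization with a myelin oligodendrocyte glycoprotein peptide in adjuvant, followed by dorsal laminectomy, injection of tumor necrosis factor and interferon gamma into the cord, and pertussis toxin. The antibody was given intravenously from some days after the cytokine injection, and cords were taken a few days after its first dose. A further 5 mice with targeted EAE received an isotype control antibody, and their values are given beside those of the treated mice. Naïve mice had no treatment at all, so that immunization, surgery, cytokine injection, toxin and antibody cannot be told apart in this comparison. No EAE group without an antibody was analysed here.

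In EAE, T cells that recognise myelin antigens enter the cord, meet antigen on MHC class II and recruit monocytes and neutrophils, while microglia and astrocytes become reactive and the vessel wall loosens. Interferon gamma drives much of the transcription seen in such tissue, including MHC genes, guanylate-binding proteins and the chemokines that attract T cells. RGMa, a glycosylphosphatidylinositol-anchored protein that acts through the receptor neogenin, limits axon growth and is a co-receptor for bone morphogenetic proteins (BMP).

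Each gene was measured as a deposited Affymetrix signal on the log2 scale, and a difference of 1 on that scale is a doubling. A gene was called higher or lower when the limma test gave a Benjamini-Hochberg adjusted p under 0.05 over all 18194 genes and the fold change was over 1.5. It was called near naïve when the 95% interval of the difference lay wholly within 1.5-fold in either direction, and undecided otherwise. Array number limits the precision of every value. In whole tissue, fewer cells of a type and less RNA per cell cannot be told apart, and the same holds for more. Each array was scaled to the same trimmed mean, so a lower signal also cannot be told from a larger share of other RNA.

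Of the 18194 genes, 2400 were called higher in anti-RGMa treated cord than in naïve cord (13.2%), and 1511 were called lower (8.3%). A further 6492 were near naïve (35.7%) and 7791 were undecided. Bright genes were near naïve more often, as 5146 were so when only genes above the median mean signal were tested. For lists of bright genes, 35.7% is therefore a low background. Rises were larger than falls: 788 genes rose over 4-fold and 203 over 16-fold, whereas 285 fell over 2-fold and 27 over 4-fold. The median difference over all genes was -0.03. The split between rises and falls depended on scaling. Quantile normalization gave 1983 higher and 2443 lower genes, with a median difference of -0.16. The share of higher calls was then 44.8%, against 61.4% in the main fit.

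**Figure D1:**
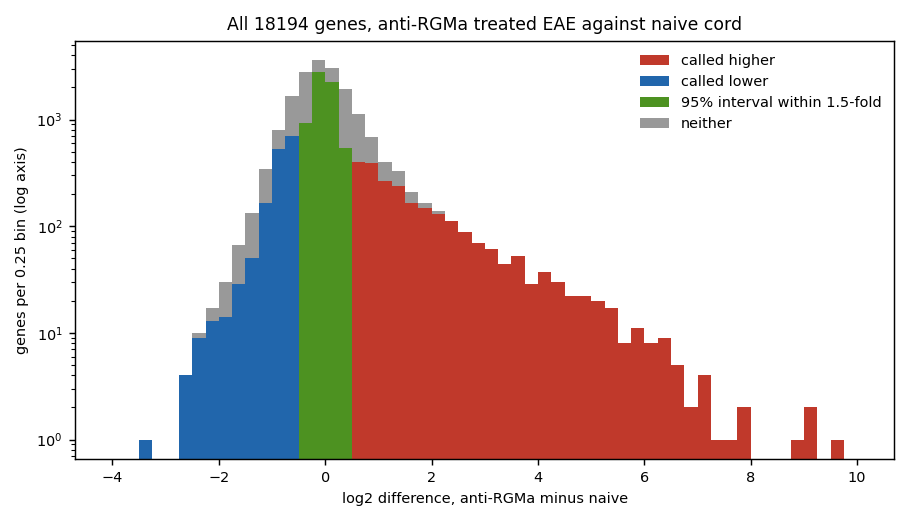
Histogram of the log2 difference between anti-RGMa treated and naïve cord for all 18194 genes, in bins of 0.25 with a log axis for the number of genes. The 2400 genes called higher form a long right tail up to 9.69, and the 1511 called lower end at -3.35.

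With the isotype control antibody, 3135 genes were called higher than in naïve cord (17.2%), 2709 lower (14.9%) and 5088 near naïve (28%). Of the 3135, 2293 were also called higher under anti-RGMa (73.1%), 790 were undecided (25.2%) and 52 were near naïve (1.66%). Of the 2709 genes lower with the isotype antibody, 1374 were also lower under anti-RGMa (50.7%), 1215 were undecided (44.9%) and 120 were near naïve (4.43%). Seen from the treated side, 95.5% of its higher calls and 90.9% of its lower calls were called the same way with the isotype antibody, which left 107 and 137 that were not. Both comparisons use the same 6 naïve arrays, so these counts cannot show a difference between the antibodies. In the direct test of anti-RGMa against isotype control, 1 gene was called higher (0.0055%) and 0 lower (0%) by limma, with 2870 genes (15.8%) at an unadjusted p under 0.05. A p that misses the adjusted threshold does not show that the antibodies gave the same level. That gene was Tmem114, which encodes a transmembrane protein and was named after its values were seen. Its log2 signal was 7.59 to 8.25 in naïve, 5.75 to 7.42 in anti-RGMa and 4.20 to 5.51 in isotype control cord (limma, adjusted p = 0.0455 between the antibodies). Among the 138 other genes given with full values here, none passed that adjusted threshold by limma (lowest adjusted p = 0.184, for Sdc1, with 40 of the 138 at an unadjusted p under 0.05).

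The samples were first checked by markers. On the first principal component, with 41.2% of the variance, naïve arrays lay between -95.08 and -83.57, anti-RGMa arrays between 12.23 and 76.55 and isotype arrays between 45.76 and 82.51. Trunk Hox genes, used here as a mark of cord tissue, had list means of 9.06 to 9.21 in naïve and 8.23 to 8.91 in anti-RGMa cord. All treated means thus lay below all naïve means. Of 14 measured, 5 were called lower (35.7%, against 8.3% of all genes), and the median was -0.45 (isotype -0.49). Dorsal root ganglion genes stood out on 2 treated arrays: their mean log2 signal was 8.69 in anti-RGMa replicate 1 and 7.29 in replicate 6, against 4.68 to 5.06 in the other 4. Naïve arrays had 4.63 to 6.50 on that list. Skeletal muscle genes had means of 4.72 to 8.21 in naïve and 5.67 to 7.34 in anti-RGMa cord, but were 8.88, 12.84 and 9.20 in isotype control replicates 3, 4 and 5. The part of these other tissues in the results was not tested, and counts without anti-RGMa replicates 1 and 6 are given with the neuronal and matrix lists.

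**Figure D2:**
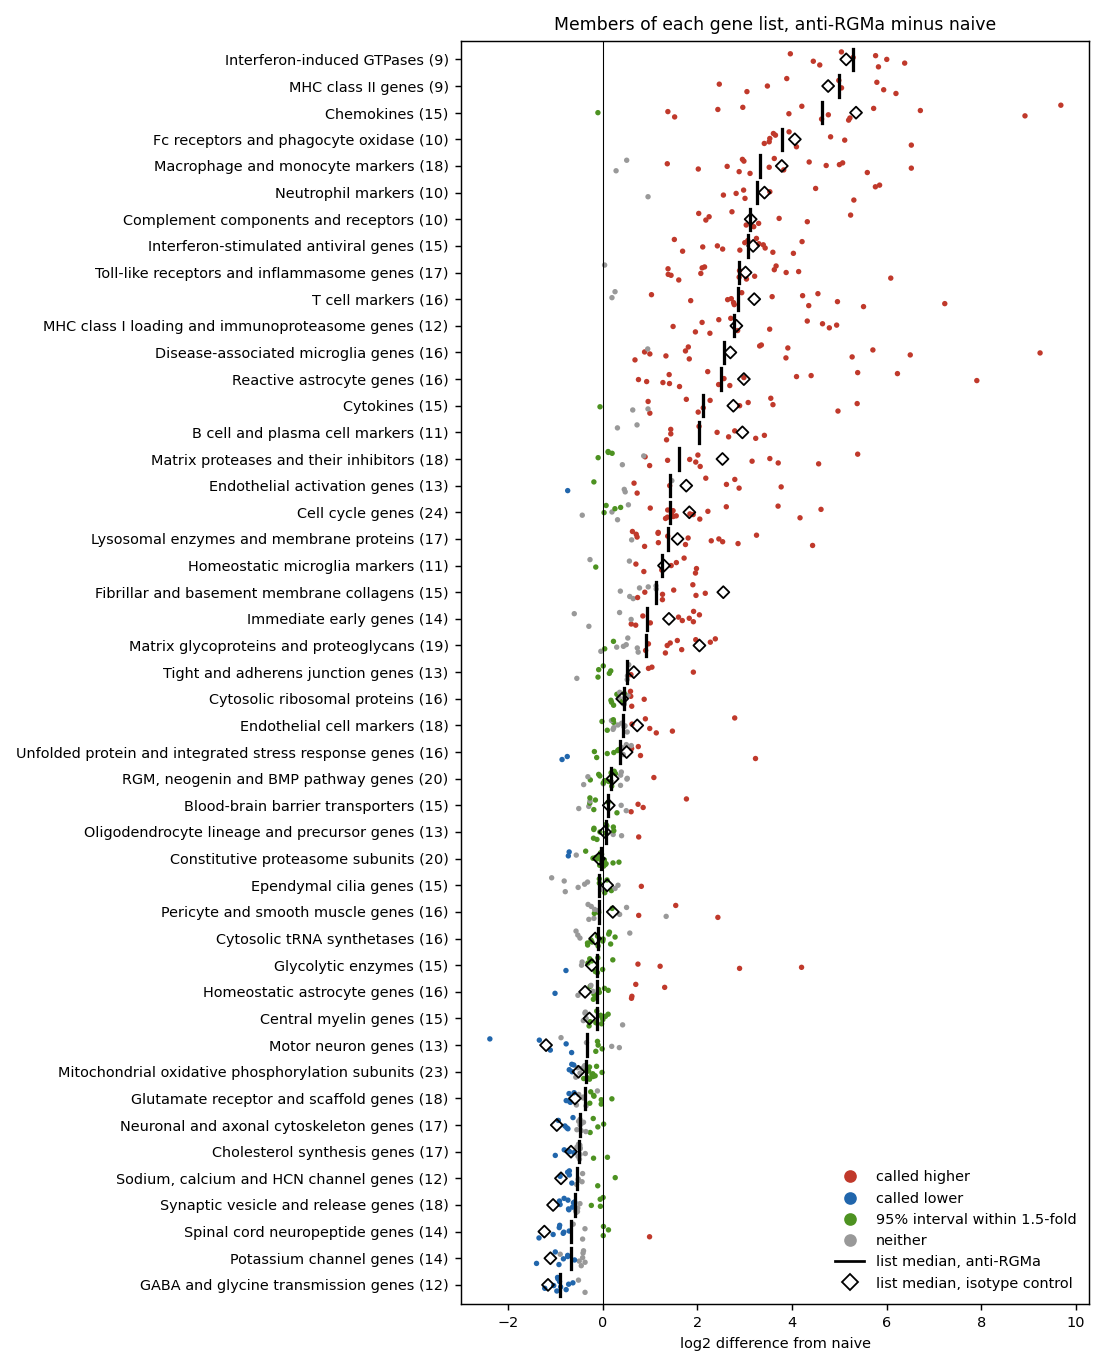
Log2 difference from naïve cord (horizontal axis) for the measured members of 47 process lists, 1 dot per gene, coloured by call, with the number of measured members in brackets. Black bars are list medians under anti-RGMa and open diamonds list medians under the isotype control antibody. Immune lists lie at the top, with medians up to 5.29, and inhibitory transmission lies at the bottom with a median of -0.90.

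Interferon-induced genes were among the largest differences that remained under treatment. All 9 measured members of the interferon-induced GTPase list, proteins that attack vacuoles of intracellular pathogens, were called higher, with a median difference of 5.29 against 5.15 with the isotype antibody. All 15 interferon-stimulated antiviral genes were called higher as well (median 3.07 and 3.18). The median over all genes was -0.03, and 13.2% of genes were called higher. As a description only, the sequence before the start of transcription is shown for a chemokine, 3 GTPases and an antiviral gene. These genes were chosen because they hold the element described next. The sequences are from RefSeq (GRCm38.p6), 250 bases each, written 5′ to 3′ on the gene's strand. Capitals mark the interferon response element, GAAA repeated after a gap of any NN bases, on either strand, in Irgm1 as an overlapping pair of matches, and in Cxcl10 also the kappaB consensus, which overlaps itself in the second stretch of capitals for it.
Cxcl10, chr5:92348890-92349139, minus strand: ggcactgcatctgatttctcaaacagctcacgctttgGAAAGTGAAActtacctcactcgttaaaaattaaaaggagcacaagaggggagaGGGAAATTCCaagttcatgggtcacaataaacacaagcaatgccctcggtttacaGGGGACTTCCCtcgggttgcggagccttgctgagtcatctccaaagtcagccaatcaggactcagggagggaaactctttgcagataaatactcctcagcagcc
Gbp2, chr3:142620413-142620662, plus strand: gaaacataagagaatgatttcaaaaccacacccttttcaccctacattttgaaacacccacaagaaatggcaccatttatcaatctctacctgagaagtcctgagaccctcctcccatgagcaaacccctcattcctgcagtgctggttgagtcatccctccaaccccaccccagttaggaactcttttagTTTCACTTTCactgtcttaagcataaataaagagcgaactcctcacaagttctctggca
Igtp, chr11:58199306-58199555, plus strand: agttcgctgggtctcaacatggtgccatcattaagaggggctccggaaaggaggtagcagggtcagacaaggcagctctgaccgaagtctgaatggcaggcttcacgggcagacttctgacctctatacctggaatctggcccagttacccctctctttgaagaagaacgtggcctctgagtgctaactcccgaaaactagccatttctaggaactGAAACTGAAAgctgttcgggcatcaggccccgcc
Irgm1, chr11:48871421-48871670, minus strand: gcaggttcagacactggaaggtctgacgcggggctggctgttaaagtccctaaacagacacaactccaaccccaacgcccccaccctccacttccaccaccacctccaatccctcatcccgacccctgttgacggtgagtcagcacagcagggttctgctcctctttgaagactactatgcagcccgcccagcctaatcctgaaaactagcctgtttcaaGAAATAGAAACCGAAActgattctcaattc
Ifit1, chr19:34640639-34640888, plus strand: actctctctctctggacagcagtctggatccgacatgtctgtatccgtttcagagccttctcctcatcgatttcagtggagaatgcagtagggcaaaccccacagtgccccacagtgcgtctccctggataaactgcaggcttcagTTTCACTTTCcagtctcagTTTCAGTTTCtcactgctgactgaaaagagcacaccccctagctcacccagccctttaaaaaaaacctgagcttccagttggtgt

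Among the 14453 array genes with a promoter in the table, 453 held this element in these 250 bases (3.13%). It was found in 6 of 7 GTPase promoters (85.7%), the exception being Ifi47, and in 6 of 11 promoters of the antiviral list (54.5%). On other lists with high medians, it was found in 1 of 9 chemokine promoters (11.1%, that of Cxcl10), 1 of 10 of the class I loading list (10.0%) and 0 of 6 of MHC class II. The gamma activated site TTCNNNGAA was present in 3 of 7 GTPase promoters (42.9%) and 7.42% of all. The kappaB consensus was present in 3 of 9 chemokine promoters (33.3%), those of Cxcl1, Cxcl2 and Cxcl10, and in 10.1% of all. Of the other motifs searched for, the cell cycle homology region TTTGAA was in 4 of 7 GTPase promoters (57.1%) and 14.1% of all. On the cell cycle list it was in 7 of 21 promoters (33.3%). For the sterol regulatory element TCACNCCAC, matches were in 1 of 14 cholesterol synthesis promoters (7.14%) and 1.27% of all. With so few promoters per list, all these list shares are imprecise. A match of letters is a description and not a site of binding.

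Gbp2, the guanylate-binding protein shown above, had a log2 signal of 7.03 to 7.99 (median 7.59) in naïve cord and 12.89 to 14.05 (median 13.32) in anti-RGMa cord. The groups did not overlap, and the difference was 5.83 ± 0.24 (SE), a 56.8-fold rise (limma, adjusted p = 6.88e-11). The rise was 5.93 with the isotype antibody. On the same GTPase list, Gbp6 and Ifi47 rose by 6.38 ± 0.21 and 6.00 ± 0.27. The immunity-related GTPases Igtp and Irgm1 rose by 5.29 ± 0.18 and 3.97 ± 0.24, against 5.15 and 4.04 with the isotype antibody. Of the antiviral genes, Bst2, which tethers budding virions, rose by 4.03 ± 0.27. Ifit1, which binds viral RNA lacking a host cap, rose by 3.60 ± 0.30.

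Chemokines showed the widest range of all lists. Of 15 measured, 14 were called higher, with a median of 4.63 (isotype 5.35), and Cx3cl1, the neuronal ligand of the microglial receptor Cx3cr1, was near naïve at -0.10. Cxcl9, a ligand of the chemokine receptor CXCR3 of T cells, had the largest rise of all 18194 genes. Its log2 signal was 2.17 to 3.81 (median 2.93) in naïve and 12.33 to 12.95 (median 12.62) in anti-RGMa cord, a difference of 9.69 ± 0.29 (limma, adjusted p = 2.33e-12). Naïve signals this low have an uncertain level, and with 32 added to every signal the difference was 7.33. The isotype arrays lay between 11.97 and 13.78, a range that holds all 6 treated arrays. Ccl5, which attracts T cells and monocytes, rose by 8.93 ± 0.55 (7.35 with the offset). Cxcl10, a further CXCR3 ligand, rose from 2.6 to 6.22 in naïve to 11.17 to 12.70 in anti-RGMa cord, a difference of 6.71 ± 0.53. Naïve and treated arrays did not overlap for any of these genes, which the plot of single genes by array shows for Cxcl9.

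**Figure D3:**
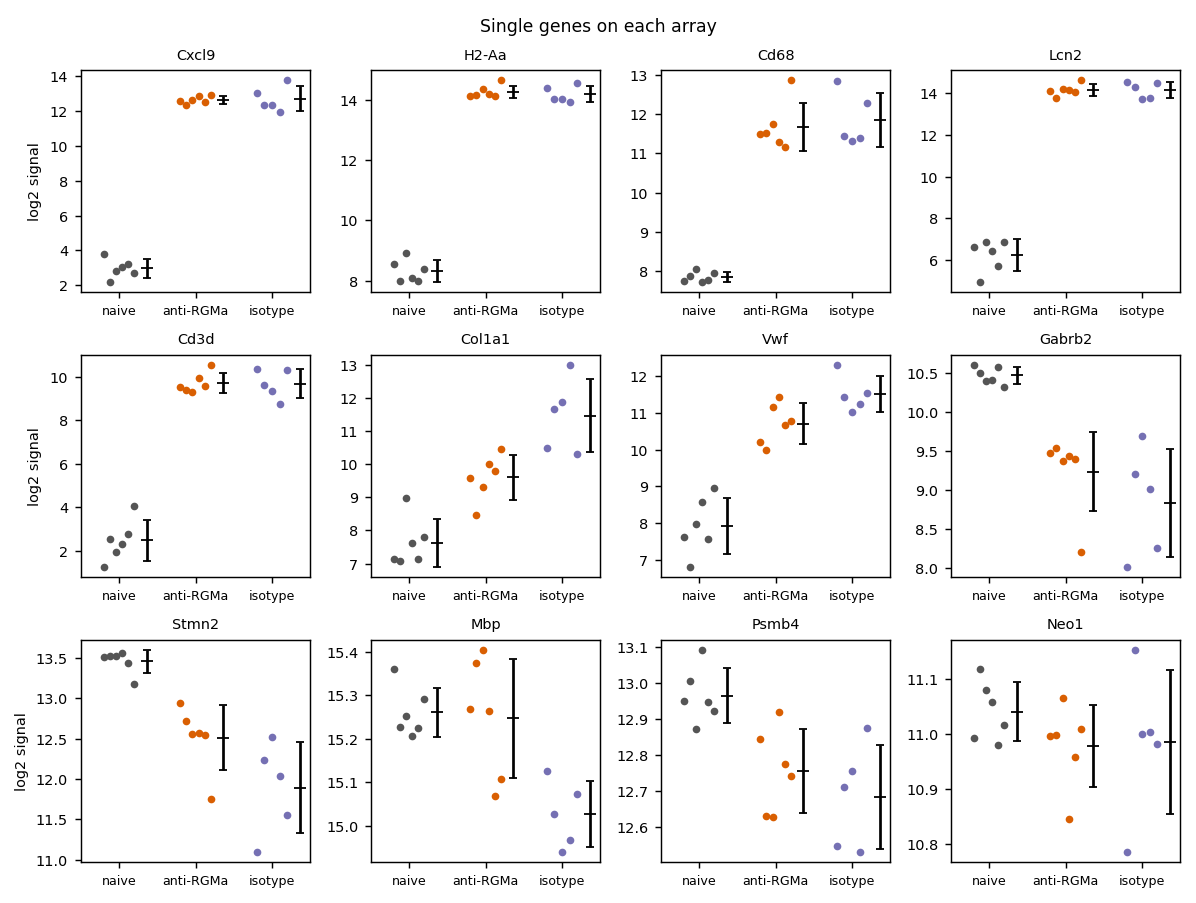
Log2 signal of 12 genes on each array of the naïve (6), anti-RGMa (6) and isotype control (5) groups, with the group mean and SD at the right of each group and a separate vertical scale per panel. Cxcl9, H2-Aa, Cd68, Lcn2 and Cd3d are far above naïve in both EAE groups, Col1a1 and Vwf are higher with wider spread, Gabrb2 and Stmn2 are lower, and the ranges of Mbp, Psmb4 and Neo1 overlap between naïve and anti-RGMa cord.

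Antigen presentation genes were higher under treatment without exception on their lists. All 9 MHC class II genes and all 12 genes of class I loading and the immunoproteasome were called higher, with medians of 4.99 and 2.78 (isotype 4.76 and 2.82). H2-Aa, the class II alpha chain, had a log2 signal of 7.98 to 8.92 (median 8.24) in naïve and 14.12 to 14.64 (median 14.16) in anti-RGMa cord. It rose 61.3-fold, by 5.94 ± 0.16 on the log2 scale (limma, adjusted p = 1.42e-12), and the isotype arrays ranged from 13.93 to 14.54. Cd74, the invariant chain that escorts class II, rose by 6.20 ± 0.15, and H2-Eb1 by 5.79 ± 0.17. On the class I side, Psmb8 and Psmb9, subunits that interferon exchanges into the proteasome, rose by 4.94 ± 0.23 and 4.65 ± 0.24. Nlrc5, the transactivator of class I genes, rose by 4.79 ± 0.23.

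Of 18 macrophage and monocyte markers 16 were called higher and 2 were undecided, with a median of 3.32 (isotype 3.78, with 18 called). Cd68, a lysosomal protein of phagocytes, had 7.71 to 8.06 in naïve and 11.17 to 12.86 in anti-RGMa cord, where replicate 6 was highest and the other 5 arrays lay at or below 11.74. The difference was 3.82 ± 0.29 (limma, adjusted p = 6.11e-08), with no overlap between the groups. Cybb, the catalytic subunit of the phagocyte oxidase, rose by 6.52 ± 0.34, and Ccr2, the receptor that brings monocytes into tissue, by 5.59 ± 0.54 (4.03 with 32 added). All 10 genes of the Fc receptor and phagocyte oxidase list were called higher, at a median of 3.79. In it, Fcgr2b, the inhibitory IgG receptor, rose by 5.11 ± 0.26 and Fcgr4, an activating one, by 4.82 ± 0.29.

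Genes of disease-associated microglia rose in 15 of 16 cases (median 2.57, isotype 2.70). Cst7, which encodes cystatin F, an inhibitor of lysosomal proteases, rose by 9.25 ± 0.29 from a naïve signal of only 1.42 to 2.86, and by 6.32 with the offset. Clec7a, the beta-glucan receptor dectin-1, rose by 6.50 ± 0.23, and Gpnmb, a lysosomal membrane protein of lipid-laden phagocytes, by 5.71 ± 0.42. No gene of resting microglia was called lower. Of 11 measured, 8 were called higher (median 1.25, isotype 1.29), 1 was near naïve and 2 were undecided. Tmem119, a surface marker of microglia, had 8.14 to 8.57 in naïve and 9.91 to 10.21 in anti-RGMa cord, a rise of 1.72 ± 0.09 with no overlap. Olfml3 and the fractalkine receptor gene Cx3cr1 rose by 1.98 ± 0.13 and 1.96 ± 0.16. P2ry12, the receptor by which microglia sense purines, was the member near naïve, at 9.32 to 9.70 and 8.75 to 9.83, a difference of -0.15 with an interval of -0.50 to 0.20. Its difference was -0.57 with the isotype antibody, which was undecided.

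Lysosomal genes rose in 16 of 17 cases, though less (median 1.37, isotype 1.58). Ctsc, cathepsin C, which activates proteases of granules, rose by 4.44 ± 0.20. Neutrophil markers were called higher in 9 of 10 cases (median 3.27, isotype 3.42). S100a8 and S100a9, the subunits of calprotectin, rose by 5.76 ± 0.66 and 5.85 ± 0.65. Naïve cords varied widely here, from 5.23 to 10.21 for S100a8, and yet all 6 treated arrays, at 12.42 to 13.81, lay above them. Acp5, the tartrate-resistant acid phosphatase that stood on a list of cartilage and bone markers but is also made by activated macrophages, rose by 6.34 ± 0.54, while 9 of the 13 measured genes of that list were undecided and 3 near naïve.

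Most lymphocyte genes were higher as well. T cell markers were called higher in 14 of 16 cases (median 2.86, isotype 3.20), and the exceptions Cd8a and Zap70 were undecided. Cd3d, a chain of the T cell receptor complex, lay at 1.25 to 4.04 in naïve and 9.30 to 10.54 in anti-RGMa cord, a difference of 7.23 ± 0.40 (4.49 with 32 added). Cd2, an adhesion receptor of T cells, rose by 5.51 ± 0.45. B cell and plasma cell markers were called higher in 9 of 11 cases, with a median of 2.03 (isotype 2.95). Cd22, an inhibitory receptor of B cells, rose by 3.23 ± 0.32, close to 3.29 with the isotype antibody. Sdc1, the syndecan of plasma cells and epithelia, rose by 2.03 ± 0.24, against 3.33 with the isotype antibody (limma, adjusted p = 0.184 for the difference between the antibodies).

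Cytokine genes were called higher in 12 of 15 cases (median 2.12, isotype 2.76 with 13 called). Il1rn, the interleukin-1 receptor antagonist, rose by 5.38 ± 0.40, Il1b itself by 3.60 ± 0.34 and Tgfb1, transforming growth factor beta, by 1.77 ± 0.19. Il18 was near naïve at -0.06, and Il10 and Il12b were undecided. All 10 complement genes were called higher (median 3.11, isotype 3.13). Cfb, factor B of the alternative pathway, rose by 5.24 ± 0.56, the classical protease gene C1ra by 4.32 ± 0.31 and the anaphylatoxin receptor gene C3ar1 by 3.73 ± 0.28. Toll-like receptor and inflammasome genes were called higher in 16 of 17 cases (median 2.88), all but Tlr9. Examples were Casp4, the sensor of intracellular endotoxin (6.09 ± 0.60), Tlr1 (4.14 ± 0.30) and the inflammasome adaptor gene Pycard (3.88 ± 0.21).

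**Figure D4:**
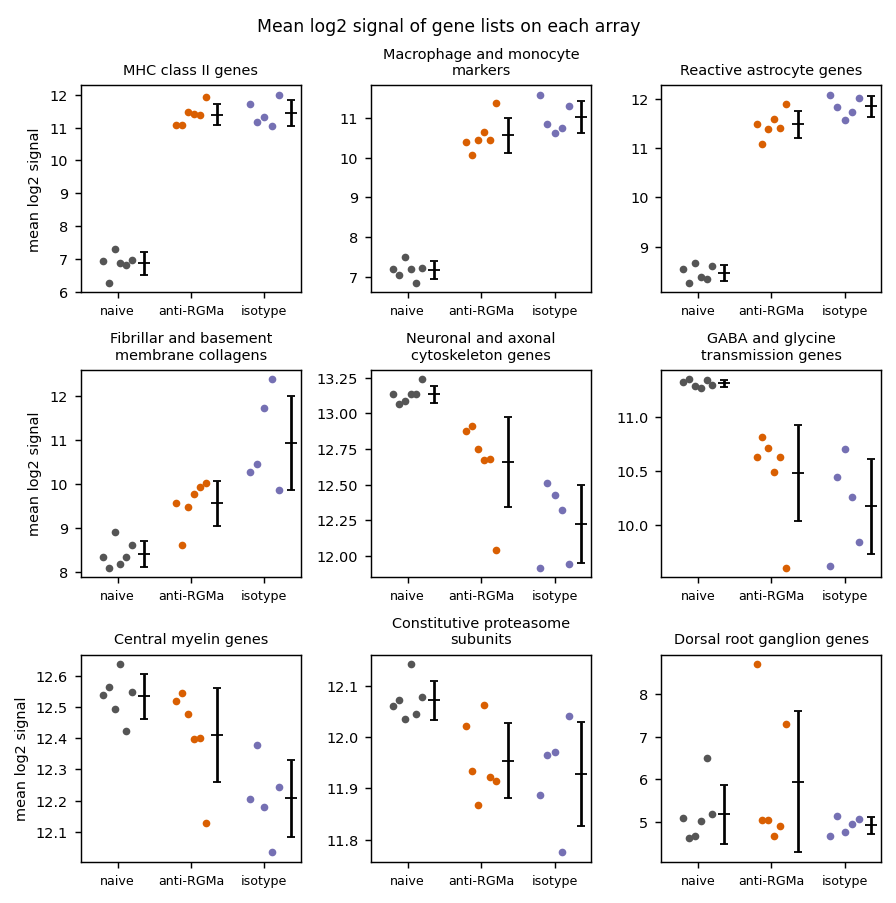
Mean log2 signal of 9 gene lists on each array, by group, with the group mean and SD at the right of each group and a separate vertical scale per panel. MHC class II, macrophage and reactive astrocyte lists separate both EAE groups from naïve cord, collagen means of the treated cords (8.60 to 10.01) overlap those of both other groups (8.09 to 8.90 and 9.86 to 12.38), and anti-RGMa replicate 6 is the lowest treated array for neuronal, inhibitory and myelin lists.

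Reactive astrocyte genes were higher under treatment, while 8 of 16 homeostatic ones lay near naïve. All 16 reactive astrocyte genes were called higher (median 2.51, isotype 2.98). Gfap, the intermediate filament of astrocytes, was 12.63 to 12.95 (median 12.87) in naïve and 13.82 to 14.22 (median 14.14) in anti-RGMa cord, a 2.41-fold rise of 1.27 ± 0.11 (limma, adjusted p = 2.75e-07), against 1.11 with the isotype antibody. Lcn2, lipocalin 2, a secreted iron-siderophore binder made by reactive astrocytes and neutrophils, rose by 7.91 ± 0.29, and the EAE groups overlapped, at 13.75 to 14.62 and 13.73 to 14.53. Steap4, a metalloreductase, and Timp1, an inhibitor of matrix proteases, rose by 6.23 ± 0.35 and 5.39 ± 0.35. Of 16 homeostatic astrocyte genes, 8 were near naïve, 4 were called higher, 1 lower and 3 undecided (median -0.12, isotype -0.37). The share near naïve was 50%, against 35.7% of all genes and more among bright genes such as these. The glutamate transporter gene Slc1a3 rose by 1.31 ± 0.20, and Gjb6, a gap junction connexin, fell by 1.01 ± 0.17, with all treated arrays below all naïve arrays. Sox9, an astrocyte transcription factor, rose by 0.70 ± 0.15, a call that was lost under quantile normalization (0.49) and over the mean of its probe sets (0.005). With the isotype antibody 4 members were called lower. Of these, Slc4a4, a bicarbonate cotransporter, and Acsbg1, an acyl-CoA synthetase, were near naïve under anti-RGMa at -0.27 and -0.20, against -0.63 and -0.60.

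Extracellular matrix genes were called higher in part in treated cord. Of 15 fibrillar and basement membrane collagens 8 were called higher and 7 were undecided (median 1.13), whereas all 15 were called with the isotype antibody (median 2.55). In the direct comparison all 15 lay below isotype control, each at an unadjusted p under 0.05 by limma, where 15.8% of all genes had such a p, and 0 passed adjustment. Without anti-RGMa replicate 6 the 8 higher collagens became 6, and without replicate 1 they became 7. Col1a1, a chain of type I collagen, had 7.07 to 8.98 (median 7.39) in naïve, 8.46 to 10.46 (median 9.68) in anti-RGMa and 10.29 to 12.99 in isotype control cord. Naïve and treated arrays overlapped, since 1 treated array lay below the highest naïve array. The difference from naïve was 1.97 ± 0.46 (limma, adjusted p = 0.00292), against 3.84 with the isotype antibody, and the difference between the antibodies of -1.87 did not pass adjustment (limma, adjusted p = 0.202). Col3a1, of type III collagen, rose by 2.17 ± 0.44, against 3.52. Matrix glycoproteins and proteoglycans were called higher in 10 of 19 cases (median 0.91), against 16 with the isotype antibody (median 2.04). All 19 lay below isotype control, 16 of them at an unadjusted p under 0.05 and 0 after adjustment by limma. Without anti-RGMa replicates 1 and 6 together 7 of the 19 were called higher against naïve cord. Tnc, tenascin C of wound matrix, rose by 2.38 ± 0.32 (isotype 3.81), and Thbs2, thrombospondin 2, by 1.97 ± 0.15 (isotype 2.82). Genes of meningeal fibroblasts, cells that make collagen, had list means of 8.80 to 9.77 in naïve, 8.09 to 10.14 in anti-RGMa and 9.48 to 11.23 in isotype control cord. Isotype control replicates 3 and 4 had the highest collagen means (11.71 and 12.38) and also raised skeletal muscle means (8.88 and 12.84), while replicate 5 had a muscle mean of 9.20 and the lowest collagen mean of its group (9.86). The part of fibroblasts, meninges or muscle in the collagen values was not tested. Among matrix proteases and inhibitors 12 of 18 were called higher (median 1.60, isotype 2.53 with 12), while Mmp9, Timp2, Timp3 and Timp4 were near naïve. Plaur, the urokinase receptor, rose by 2.01 ± 0.26.

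Vessel genes were called higher in part, to be read beside 13.2% higher, 8.3% lower and 35.7% near naïve over all genes. Endothelial cell markers were called higher in 6 of 18 cases, with 4 near naïve and 8 undecided (median 0.42). With the isotype antibody 11 were called (median 0.73). Vwf, the von Willebrand factor that endothelium stores for clotting, rose from 6.81 to 8.95 (median 7.80) in naïve to 9.99 to 11.43 (median 10.72) in anti-RGMa cord, by 2.79 ± 0.34 (limma, adjusted p = 1.21e-05). Cd34 and Ecscr, surface proteins of endothelium, rose by 1.13 ± 0.14 and 1.47 ± 0.14. Sox17, Egfl7, Tek and Robo4 were the members near naïve, at -0.02 to 0.23. The number near naïve depended on setting, with 8 under quantile normalization, 7 under 75th percentile centring and 2 without anti-RGMa replicates 1 and 6 together. Endothelial activation genes were called higher in 8 of 13 cases and lower in 1, Apln (median 1.41, isotype 1.76). Selp, P-selectin, which slows leukocytes on the vessel wall, rose from 3.44 to 5.73 in naïve to 6.37 to 8.84 in anti-RGMa cord, by 2.79 ± 0.42 (1.94 with 32 added), and the isotype arrays reached 8.26 to 9.44. The adhesion ligand gene Icam1 rose by 3.77 ± 0.22, and Ch25h, which makes an oxysterol, by 2.88 ± 0.26.

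Counts near naïve on the barrier lists were close to the share over all genes (35.7%). Of the barrier genes, 4 of 13 junction genes were called higher and 5 were near naïve (median 0.52, isotype 0.66 with 7 higher and 1 lower). F11r, junctional adhesion molecule A, rose by 1.91 ± 0.12, though over the mean of its probe sets the difference was 0.52 and no longer called. Cldn5, the main claudin of the blood-brain barrier, was undecided. It had 9.77 to 10.18 in naïve and 10.02 to 10.76 in anti-RGMa cord, a difference of 0.52 ± 0.13 (limma, adjusted p = 0.00421) that stayed under 1.5-fold. Without anti-RGMa replicate 1, the lowest treated array, it was 0.61 and called higher, as it was with the isotype antibody (0.67). Blood-brain barrier transporters were called higher in 4 of 15 cases and near naïve in 6 (median 0.11, isotype 0.13). Under quantile normalization 2 of them were higher. Slco2b1, an organic anion transporter, rose by 1.77 ± 0.10, and Slc16a1, the monocarboxylate transporter, by 0.85 ± 0.09. Pericyte and smooth muscle genes had 3 called higher, 4 near naïve and 9 undecided of 16 (median -0.09), against 7 called with the isotype antibody (median 0.21). The shares were 18.8% higher, 0% lower and 25% near naïve, against 13.2%, 8.3% and 35.7% of all genes. Tagln, an actin-binding protein of smooth muscle and fibroblasts, rose by 1.54 ± 0.27. Pdgfrb, the pericyte receptor, was undecided at 0.50, against 1.24 with the isotype antibody.

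Cell division and stress lists are given beside the 13.2% of all genes called higher. Cell cycle genes were called higher in 16 of 24 cases (median 1.41, isotype 1.83 with 17). Mki67, the Ki-67 antigen of dividing cells, rose by 4.61 ± 0.42 and Top2a, the topoisomerase of mitosis, by 3.71 ± 0.33. Immediate early genes were called higher in 10 of 14 cases (median 0.93, isotype 1.40 with 12 higher and 1 lower). Junb, a subunit of AP-1, rose by 2.04 ± 0.19. Zfp36, which destabilises cytokine messages, rose by 1.92 ± 0.26, and the transcription factor gene Egr2 by 1.92 ± 0.24. Of 16 unfolded protein and integrated stress response genes, 4 were called higher, 2 lower and 6 near naïve (median 0.37, isotype 0.50 with 7 higher). The shares lower (12.5%) and near naïve (37.5%) were about those of all genes, and the share higher was 25%. Atf3, a stress-induced transcription factor, was the largest of them (3.23 ± 0.37), followed by Creld2, a chaperone of the endoplasmic reticulum (0.80 ± 0.11).

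Many neuronal genes were called lower in treated than in naïve cord. On the GABA and glycine transmission list, the inhibitory signalling of the cord, 10 of 12 genes were called lower (median -0.90), against a background of 8.3%, and all 12 with the isotype antibody (median -1.16). Gabrb2, a GABA-A receptor subunit, had 10.32 to 10.60 (median 10.45) in naïve and 8.20 to 9.54 (median 9.42) in anti-RGMa cord, with replicate 6 lowest and the other 5 at or above 9.38. It fell by 1.23 ± 0.27 (limma, adjusted p = 0.0018), and the groups did not overlap. Gad2, which makes GABA, fell by 1.04 ± 0.26. Potassium channel genes were called lower in 7 of 14 cases (median -0.67), against 14 with the isotype antibody (median -1.11). Kcnab1, a beta subunit, fell by 1.40 ± 0.29 (isotype -2.03) and Kcna2, the axonal Kv channel, by 0.93 ± 0.21. The call for Kcna2 was lost over the mean of its probe sets (-0.52).

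Synaptic vesicle genes were called lower in 9 of 18 cases, with 4 near naïve (median -0.59). With the isotype antibody 14 were called (median -1.05). Syt1, the calcium sensor of release, fell by 0.92 ± 0.20, with 11.76 to 12.09 in naïve and 10.38 to 11.47 in anti-RGMa cord. Syn1, synapsin, was undecided at -0.48 (isotype -1.07, called lower). Glutamate receptor and scaffold genes were called lower in 5 of 18 cases (27.8%, against 8.3% of all genes). The 7 near naïve (38.9%) were about the 35.7% of all genes. The list median was -0.38 (isotype -0.59 with 9 lower). The AMPA receptor gene Gria4 fell by 0.77 ± 0.16. Sodium, calcium and HCN channel genes were lower in 5 of 12 cases (median -0.54, isotype -0.88 with 8), with Scn1a down by 0.90 ± 0.24 and Scn2b, a sodium channel beta subunit, by 0.71 ± 0.17.

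Of 17 neuronal and axonal cytoskeleton genes, 5 were called lower, 4 were near naïve and 8 undecided (median -0.48), whereas 15 were called lower with the isotype antibody (median -0.97). In the direct comparison 0 of 17 lay below isotype control, and 14 had an unadjusted p under 0.05 by limma, with 0 after adjustment. Nefl, the light neurofilament, had 14.59 to 14.76 in naïve and 13.57 to 14.49 in anti-RGMa cord. All 6 treated arrays lay below all naïve arrays, but the difference of -0.41 ± 0.14 stayed under 1.5-fold, against -0.86 with the isotype antibody, which was called. Stmn2, a tubulin regulator of axons, fell by 0.94 ± 0.22 (isotype -1.56). Tubb3, neuronal tubulin, and Ank2, an axonal membrane scaffold, were called lower with the isotype antibody (-0.67 and -0.62) but were near naïve under anti-RGMa (-0.20 and -0.27). Motor neuron genes were lower in 5 of 13 cases (38.5%, against 8.3% of all genes). The 4 near naïve (30.8%) were about the 35.7% of all genes. The list median was -0.34 (isotype -1.20 with 8 lower). Slc18a3, the vesicular acetylcholine transporter, fell by 1.34 ± 0.28 and Ache, acetylcholinesterase, by 0.66 ± 0.20. Ret, a receptor of neurotrophic factors, was near naïve at -0.11 (isotype -0.85, called lower), with its highest treated value, 10.46, in the replicate that was also highest for dorsal root ganglion genes. Neuropeptide genes were lower in 7 of 14 cases (median -0.67, isotype -1.24 with 9). Cck, cholecystokinin, fell by 1.35 ± 0.25 and Sst, somatostatin, by 0.92 ± 0.23, while Tac1, Pdyn and Gal were near naïve and Crh was called higher at 0.99.

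Anti-RGMa replicate 6 weighed on these counts. Its mean over the neuronal cytoskeleton list was 12.04, against 12.68 to 12.91 in the other 5 treated arrays, and its mean over macrophage markers was 11.39, against 10.07 to 10.65. Without it, 1059 genes in all were called lower and 2153 higher. The number of lower synaptic vesicle genes went from 9 to 3, sodium, calcium and HCN channel genes from 5 to 1, glutamate receptor genes from 5 to 2, motor neuron genes from 5 to 2, inhibitory transmission genes from 10 to 7 and cytoskeleton genes from 5 to 4. Potassium channel genes went from 7 to 6 and neuropeptide genes stayed at 7. Scn2b (-0.55) and Ache (-0.49) lost their calls without it. Anti-RGMa replicate 1, the array highest for dorsal root ganglion genes, moved the same counts less, to 9 vesicle, 6 sodium, calcium and HCN channel, 6 glutamate receptor, 4 motor neuron and 10 inhibitory transmission genes. Without both arrays the lower counts were 3 vesicle, 2 sodium, calcium and HCN channel, 1 glutamate receptor, 3 motor neuron and 6 inhibitory transmission genes.

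Most central myelin genes lay near naïve. Of 15 measured genes none was called in either direction, 10 were near naïve and 5 were undecided (median -0.13). The share near naïve over all genes was 35.7%, and it was larger among bright genes such as these. With the isotype antibody 7 of the 15 were near naïve, and Mal, Gjc3 and Tspan2 were called lower (median of the list -0.28). Mbp, myelin basic protein, had 15.21 to 15.36 (median 15.24) in naïve and 15.07 to 15.40 (median 15.27) in anti-RGMa cord, ranges that overlap. Its difference was -0.01 ± 0.07 with an interval of -0.15 to 0.13. For Mobp, a basic protein of compact myelin, the interval was -0.15 to 0.26, and for the phosphodiesterase gene Cnp it was -0.20 to 0.15. Oligodendrocyte lineage genes were near naïve in 10 of 13 cases (median 0.07, isotype 0.04 with 9 near naïve). Olig1 and Ptprz1 had differences of -0.19 and 0.08. Pdgfra, the receptor of precursors, was near naïve under anti-RGMa at 0.22 and called higher with the isotype antibody at 0.67. Cholesterol synthesis genes, which supply myelin lipid, were called lower in 5 of 17 cases, with 2 near naïve and 10 undecided (median -0.50, isotype -0.67 with 11 lower). Fdps and Lss, enzymes of this pathway, fell by 1.005 ± 0.22 and 0.73 ± 0.11, and both calls were lost over the mean of their probe sets (-0.45 and -0.47).

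Housekeeping lists held many genes near naïve, but for some of them the treated list means lay wholly outside the naïve range. Of 20 constitutive proteasome subunits 17 were near naïve, a share of 85% beside 35.7% of all genes and more among bright ones. Psmb7 and Psmc5 were called lower (median of the list -0.05, isotype -0.08 with 16 near naïve). Psmb4, a core subunit, had 12.87 to 13.09 in naïve and 12.63 to 12.92 in anti-RGMa cord, an overlap of the ranges with an interval of -0.37 to -0.05. Psmc5, an ATPase of the cap, fell by 0.71 ± 0.14, a call that was lost without anti-RGMa replicate 6 (-0.58). Cytosolic tRNA synthetases were near naïve in 12 of 16 cases, with none called (median -0.11, isotype -0.16 with 11 near naïve, 1 higher and 3 lower). All treated means of that list (10.61 to 10.67) lay below all naïve means (10.68 to 10.80). Nars and Sars, which charge asparagine and serine tRNA, were undecided at -0.48 and -0.53, against -0.73 and -0.79 with the isotype antibody, both called. Oxidative phosphorylation subunits were near naïve in 14 of 23 cases (60.9%, against 35.7% of all genes and more among bright ones). They were lower in 4, and all 23 differences were below 0. All treated list means (12.60 to 13.06) lay below all naïve means (13.22 to 13.33). The median difference of these subunits was -0.36 (isotype -0.51 with 7 near naïve and 9 lower). Without anti-RGMa replicate 6, 2 were called lower. Atp5b, of the ATP synthase, had an interval of -0.58 to -0.23, and Cox4i1, of cytochrome oxidase, -0.38 to -0.03.

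Glycolytic enzymes were near naïve in 8 of 15 cases (53.3%, against 35.7% of all genes and more among bright ones). Their median was -0.11 (isotype -0.23 with 6 near naïve). All treated list means (12.34 to 12.51) nevertheless lay above all naïve means (11.93 to 12.03). The astrocyte aldolase gene Aldoc had a difference of -0.16, and Pgk1, phosphoglycerate kinase, 0.21. The 4 called higher included Hk3, the hexokinase of leukocytes, which rose by 4.20 ± 0.28, and the 1 called lower was Eno2, neuronal enolase, which fell by 0.78 ± 0.22. Cytosolic ribosomal protein genes had list means of 12.65 to 13.07 in anti-RGMa and 12.29 to 12.44 in naïve cord, without overlap. All 16 differences were above 0 (median 0.45, isotype 0.41). Of these, 4 were called higher (25%, against 13.2% of all genes) and 6 were near naïve (37.5%, about the share of all genes). Rplp0 rose by 0.88 ± 0.09. Rpl10a rose by 0.61 ± 0.08, and centring on the 75th percentile reduced the number of higher members from 4 to 1 and ended its call (0.55). Without anti-RGMa replicate 6, 2 members were higher. Ependymal cilia genes were near naïve in 5 of 15 cases (33.3%, about the share of all genes) and mostly undecided (median -0.07). Foxj1, the ciliogenesis factor, was at 0.32 and Ccdc39 at 0.04.

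The RGM pathway, which the antibody addresses, was measured by 20 genes. Of these RGM, neogenin and BMP genes, 10 were near naïve (50%, against 35.7% of all genes), 9 undecided, 1 called higher (5%, against 13.2%) and 0 lower (against 8.3%). The share near naïve was larger among bright genes than among all genes. The list median was 0.18, and 0.21 with the isotype antibody, where 7 were near naïve, 3 higher and 1 lower. Rgma, the antibody's target, had 8.05 to 8.45 (median 8.21) in naïve and 7.96 to 8.93 (median 8.84) in anti-RGMa cord. The ranges overlapped, and the difference of 0.38 ± 0.16 did not pass the test (limma, adjusted p = 0.0651). An antibody acts on the protein, so its message is no check of treatment. Neo1, the neogenin receptor, was near naïve, with an interval of -0.20 to 0.07. Id3, a target gene of BMP signalling, was the member called higher, from 10.03 to 10.51 in naïve to 11.12 to 11.60 in anti-RGMa cord, by 1.08 ± 0.09 (isotype 1.24). Its relatives Id1 and Id2 were undecided at 0.51 and 0.52, and both were called higher with the isotype antibody (0.78 and 0.68).

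Over all genes with a group mean of at least 8 in the higher group, the 10 largest rises were Cxcl9, Cst7, Acod1, Ccl5, Lcn2, Chil3, Ms4a4b, Arg1, Cd3d and Calhm6. Acod1, which makes itaconate in activated macrophages, lay at 1.38 to 1.73 in naïve and 10.10 to 11.38 in anti-RGMa cord, a difference of 9.12 ± 0.31 that was 5.52 with 32 added. Arginase 1, a marker of alternatively activated macrophages, rose by 7.32 ± 0.85, and its naïve arrays spread from 2.41 to 7.32. Chil3, the chitinase-like protein Ym1, rose by 7.86 ± 0.75. Ms4a4b and Calhm6 rose by 7.63 ± 0.45 and 7.10 ± 0.47. The naïve signals of most of these genes were near the bottom of the scale, so their fold changes are less certain than their direction. The 10 largest falls were Fam227b, Kcnab3, Nxph1, Sptssb, Chn1, Itih3, Creg2, Clvs2, Slc35f4 and Rnf227, from -1.64 to -1.40. Kcnab3 is a potassium channel subunit that fell by 1.63 ± 0.35, Nxph1 a neurexin ligand (-1.54 ± 0.33) and Chn1 a neuronal GTPase-activating protein (-1.52 ± 0.27). Sptssb, a subunit of the enzyme that starts sphingolipid synthesis, fell by 1.53 ± 0.27, and Itih3, an inhibitor heavy chain that binds hyaluronan, by 1.45 ± 0.23. Each of the 10 had all 6 treated arrays below all naïve arrays, but Slc35f4 lost its call over the mean of its probe sets (-0.48). Of the 81 named genes called higher, 79 had all treated arrays above all naïve arrays, and all 29 called lower had them below. Most of these genes were picked for a large difference, so the lack of overlap follows in part from that choice. Its share among all called genes was not counted.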

How the data were processed

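Signals of 17 arrays, 1 per mouse, were analysed (6 naïve, 6 anti-RGMa, 5 isotype control). Values were deposited by the authors as linear signal intensity on an Affymetrix mouse whole-genome expression array, with affy and MAS5 given as tools in the processing notes of the submitters. On each array the trimmed mean (2% off either end) equalled 500.0, which assumes similar total RNA in all groups. No detection calls were used, so levels near background are uncertain. Array medians were 131.5 to 145.1 in naïve and 136.0 to 157.3 in anti-RGMa cord, and 0 pairs of arrays were identical.

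Of 45101 probe sets, 34958 had 1 gene in the platform annotation, 932 several and 9211 none. RefSeq gene identifiers matched 34754, and 0 symbols changed. For each of 18194 genes the probe set with the highest mean was kept (9012 genes had several). Log2 intensity, without an offset, was tested with limma 3.58.1 (lmFit, eBayes) in R 4.3.3 over all 3 groups, with Benjamini-Hochberg adjustment, and the procedure was tested on simulated data. Python 3.11.15, pandas 2.3.3 and matplotlib 3.10.9 were used for summaries and plots.

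Named genes were, per list, the 3 called members that differed most in the direction of the list median, provided that their brighter group averaged 8 or more on the log2 scale. Where fewer than 3 members were called in that direction, the 3 with the largest absolute difference were taken whatever their call or sign. For lists mostly near naïve they were the 3 brightest members. The 10 largest rises and falls over all genes under the same brightness limit and a few fixed genes were added. Others were named after their values were seen: Igtp, Irgm1, Tmem114, Ret, Tubb3, Ank2, Slc4a4, Acsbg1, Pdgfra, Hk3, Eno2, Acp5 and list members given as exceptions. Some genes are not reported here. Members and lists were chosen with earlier results of these data known. Nothing in the labels says whether mice shared a litter or batch. Alternatives were quantile normalization, 75th percentile centring, an offset of 32, brighter genes only, the mean of probe sets, 2 groups only, a variance trend, array weights, a replicate block, unadjusted p, a fold over 2 and leaving out arrays.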

Additional observations from a re-analysis of the deposited data

Results flagged for a closer look

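A sample lay far from the rest of its group, by Dixon's criterion at the 95% level, in 57 of 582 groups tested (9.79%). For normally distributed values chance gives about 1 in 20. The groups share arrays and some genes, so an excess over that share was not tested. Of the 57, 46 concerned single genes and 11 the array means of gene lists. All values below are log2 signals, each with the range of the other samples of the same group after it.

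Anti-RGMa replicate 6 accounted for 32 of the 57. It was the highest treated array for Cybb (13.36, against 11.69 to 12.17), Cst7 (12.35, against 11.31 to 11.41), Cd22 (10.73, against 9.29 to 9.83), Ccl5 (13.74, against 12.93 to 13.22), C3ar1 (11.14, against 9.60 to 9.90), Id2 (13.08, against 12.19 to 12.28), Chil3 (14.19, against 11.44 to 12.43), Cd68 (12.86, against 11.17 to 11.74) and Acp5 (11.50, against 9.11 to 9.73). Most of these genes belong to the immune lists.

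The same replicate was the lowest treated array for the neuronal genes Stmn2 (11.75, against 12.54 to 12.94), Kcnab1 (9.07, against 10.35 to 10.71), Kcna2 (10.29, against 11.23 to 11.47), Scn1a (9.94, against 11.09 to 11.49), Gria4 (9.92, against 10.72 to 10.90), Gabrb2 (8.20, against 9.38 to 9.54), Gad2 (8.12, against 9.14 to 9.74), Nxph1 (7.40, against 8.88 to 9.42), Chn1 (9.01, against 10.07 to 10.37), Nefl (13.57, against 14.28 to 14.49) and Eno2 (11.69, against 12.68 to 13.04). It was also lowest for Psmc5 (11.65, against 12.29 to 12.63), Sptssb (6.87, against 7.69 to 8.13), Itih3 (9.59, against 10.87 to 11.44), Creg2 (5.70, against 6.80 to 6.98) and Rnf227 (9.76, against 10.92 to 11.10).

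Gene lists behaved alike. The mean of anti-RGMa replicate 6 was highest for disease-associated microglia genes (12.78, against 11.82 to 12.13) and lysosomal enzymes and membrane proteins (13.44, against 12.72 to 12.98). It was lowest for central myelin genes (12.13, against 12.40 to 12.54), neuronal and axonal cytoskeleton genes (12.04, against 12.68 to 12.91), synaptic vesicle and release genes (10.44, against 11.14 to 11.41), GABA and glycine transmission genes (9.61, against 10.49 to 10.82) and motor neuron genes (7.32, against 7.85 to 8.12).

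Naïve arrays gave 17 values. Naïve replicate 6 was lowest of its group for Cxcl10 (2.6, against 5.16 to 6.22), Il1b (5.51, against 6.06 to 6.36), Stmn2 (13.17, against 13.44 to 13.56), Atf3 (4.06, against 5.89 to 6.68), Nxph1 (9.83, against 10.33 to 10.61) and Rnf227 (11.66, against 12.18 to 12.43). It was highest of its group for Gria4 (11.79, against 11.33 to 11.40), Ache (10.92, against 10.44 to 10.52), Acod1 (1.73, against 1.38 to 1.48) and motor neuron genes (8.57, against 8.37 to 8.42). Naïve replicate 5 was lowest of its group for Slc18a3 (8.83, against 9.20 to 9.29) and Id1 (9.71, against 9.98 to 10.12). It was highest of its group for Arg1 (7.32, against 2.41 to 4.0) and dorsal root ganglion genes (6.50, against 4.63 to 5.19). Naïve replicate 1 was lowest of its group for Cd22 (5.34, against 6.51 to 6.80) and Slc1a3 (8.81, against 9.58 to 9.86). It was highest of its group for Aldoc (14.64, against 14.49 to 14.55).

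The other 8 values came from 6 arrays. Anti-RGMa replicate 2 was lowest of its group for Col3a1 (10.58, against 12.07 to 12.78), matrix glycoproteins and proteoglycans (8.94, against 9.60 to 9.93) and meningeal fibroblast genes (8.09, against 9.66 to 10.14). Anti-RGMa replicate 1 was highest of its group for Ret (10.46, against 9.74 to 10.00). Anti-RGMa replicate 4 was highest of its group for Ch25h (9.99, against 8.92 to 9.23). Anti-RGMa replicate 5 was lowest of its group for Gfap (13.82, against 14.09 to 14.22). Isotype control replicate 2 was highest of its group for Tmem114 (5.51, against 4.20 to 4.54). Isotype control replicate 4 was highest of its group for Cd34 (11.21, against 10.34 to 10.55).

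Between the antibodies 1 gene of 18194 passed adjustment, with 2870 (15.8%) at an unadjusted p under 0.05. Tmem114 was 2.16 higher with anti-RGMa than with isotype control (limma, adjusted p = 0.0455), and naïve cord lay above both, with mean log2 signals of 7.84 in naïve, 6.80 in anti-RGMa and 4.64 in isotype control cord. The next-lowest adjusted p of that comparison was 0.167.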

How the results depend on the processing

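Counts of genes against naïve cord moved by over 1.5 times under few settings. Quantile normalization gave 2443 lower genes, an offset of 32, which shrinks low-signal differences, gave 9885 near naïve, and brighter genes only gave 1211 higher, 932 lower and 1578 higher with the isotype antibody, as fewer genes were tested. A fold over 2 left 285 lower genes, and 1046 with the isotype antibody. The cause of the change under quantile normalization was not tested. Leaving out 1 array at a time gave 2153 to 2510 higher, 1059 to 1732 lower and 6058 to 7051 near naïve genes, with the extremes from anti-RGMa replicates 6 and 2. With the isotype antibody the ranges were 2996 to 3189 higher and 2454 to 2912 lower. Without anti-RGMa replicates 1 and 6 together the counts were 2125, 1094 and 6638. An unadjusted p gave 2553 higher and 1659 lower.

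Replicate numbers did not pair the arrays: deviations of same-numbered naïve and anti-RGMa arrays had correlations of -0.064 to 0.031, and only number 1 was its own best partner. With the replicate block the counts were 2325 higher, 1489 lower and 6333 near naïve. None of the called genes given with full values reversed its direction, and uncalled genes were not checked for a reversal. Of 139 genes given with full values, 110 were called, and 91 of them kept the call in each of the 29 settings that tested them, with 109 of the 139 tested among brighter genes only. Calls were lost by 16 genes with a fold over 2, 6 over the mean of probe sets, 3 without anti-RGMa replicate 6, and 1 each under quantile normalization, 75th percentile centring, array weights and the replicate block. Folds over naïve signals near background are limited by the lack of detection calls.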
